A study of Mus musculus with 8 samples.

Results

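The genes described here are 34 interferon-induced and antigen presentation genes, taken by their symbols out of the 49585 gene identifiers listed for each library. They comprise 19 antiviral effectors, 6 transcription factors and sensors, 6 genes of MHC class I and its peptide loading, and 3 genes of MHC class II. A gene was tested when its mean level over the libraries was at least 1 FPKM (fragments per kilobase of transcript, scaled to the fragments mapped in each library), which 32 of the 34 reached. Rsad2 and Oas1a lay below it and are given by level only.

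Polyadenylated RNA was sequenced from the spinal dorsal horn, where sensory fibres for touch and pain enter the cord. There were 8 libraries, 4 of wild type, written WT1 to WT4, and 4 of mice lacking miR-96, written KO1 to KO4. All came from adult C57BL/6J mice, from lumbar segments 4-6, with no treatment given in the labels. The series' design text speaks of 4 mice per genotype, but the labels do not tie each library to an animal. The p-values therefore reflect how far these libraries spread, part of which may be technical. How the allele was made, and whether it is constitutive or spares the neighbouring miR-182 and miR-183, is not given in the sources used here.

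Interferons are secreted proteins that bind receptors coupled to JAK kinases. Type I interferon leads to a complex with Stat2 and Irf9 that binds the interferon-stimulated response element (ISRE) in the promoters of antiviral genes, and interferon gamma acts through another element, the gamma-activated site (GAS). MHC class I molecules show peptides from inside nearly every cell type to cytotoxic T cells, whereas MHC class II molecules show peptides from outside the cell to helper T cells and are made in the nervous system mainly by macrophages of the borders and by activated microglia.

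The promoters of the antiviral effectors are shown first because the letters of the response element are what many of them share beyond their name. RefSeq promoter entries (assembly GRCm38.p6, 250 bases before the transcription start to 50 after it) were matched by symbol for 27 of the 34 genes. Cd74, H2-Ab1, Ifi27, Parp14, Rtp4, Tap2 and Usp18 had no entry. The ISRE core was searched as GAAA, any 2 bases and GAAA again, on both strands, and overlapping matches were joined. It was present in 13 of the 27 genes (48.1%), compared with 3.99% of all 27025 genes with an entry. By role it was in 10 of 15 antiviral effectors, 2 of 6 transcription factors and sensors, 1 of 5 MHC class I genes (B2m) and 0 of 1 MHC class II gene. The GAS core, TTCNNNGAA, which reads the same on both strands, was present in 6 of the 27 genes (22.2%), namely Bst2, Ifit2, Ifitm3, Oas1a, Irf1 and Irf8, compared with 9.55% of all genes with an entry. A match is only a run of letters, and no binding was measured. In the stretches upstream of the start printed here, 5′ to 3′ on the strand of the gene, capitals mark the ISRE core.
Isg15, chr4:156200850-156200921, minus strand: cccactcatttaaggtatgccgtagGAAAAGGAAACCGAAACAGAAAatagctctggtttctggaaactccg
Ifit1, chr19:34640760-34640838, plus strand: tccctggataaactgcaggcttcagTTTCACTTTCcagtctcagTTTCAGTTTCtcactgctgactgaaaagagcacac
Ifit3, chr19:34583348-34583441, plus strand: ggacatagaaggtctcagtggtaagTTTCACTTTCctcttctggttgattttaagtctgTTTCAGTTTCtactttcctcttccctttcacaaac
Gbp3, chr3:142559974-142560039, plus strand: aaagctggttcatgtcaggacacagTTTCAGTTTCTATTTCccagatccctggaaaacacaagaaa
Bst2, chr8:71537562-71537627, minus strand: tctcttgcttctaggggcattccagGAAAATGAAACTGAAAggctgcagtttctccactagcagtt
Stat2, chr10:128270251-128270310, plus strand: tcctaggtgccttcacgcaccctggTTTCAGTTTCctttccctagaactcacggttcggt
B2m, chr2:122147523-122147582, plus strand: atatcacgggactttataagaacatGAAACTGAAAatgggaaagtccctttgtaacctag
Isg15 held 3 overlapping copies, between 78 and 57 bases before its start, and Ifit1 and Ifit3 held 2 separate copies each.

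The microRNA removed in the knock-out pairs with messenger RNAs mainly through bases 2 to 8, its seed, which is in capitals here. Its mature sequence, from RefSeq, lies at chr6:30169506-30169528 on the minus strand of GRCm38.p6. The longest annotated 3′ UTR of each gene (GENCODE M21, GRCm38, at least 50 nt) was searched for the full seed match, GTGCCAA, and for TGCCAAA, the match to positions 2 to 7 followed by an A. Of the 34 genes 3 (8.82%) held a match, compared with 2902 of 13081 tested genes (22.2%). Those 3 are the antiviral effector Ifit1, the RNA sensor Ifih1 and the class I light chain B2m. The 34 include the untested Oas1a and Rsad2. Longer 3′ UTRs leave more room for a match, and the 2 shares were not matched for length. The members' 3′ UTRs ran from 68 nt in Ifi27 to 3613 nt in Rsad2, so the shares alone do not show fewer sites than length would give. Each site is printed on the strand of the gene with 10 bases on either side and the match in capitals.
miR-96-5p: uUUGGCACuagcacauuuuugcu
Ifit1, first site, chr19:34649190-34649216, plus strand: aaaaagtcttTGCCAAAgaaggtattt
Ifit1, second site, chr19:34649865-34649891, plus strand: tgctgtgcatGTGCCAAtgaatgaacc
Ifih1, chr2:62596890-62596916, minus strand: ctgttttgtaTGCCAAAcatctagatg
B2m, chr2:122152876-122152902, plus strand: gttgatcataTGCCAAAccctctgtac

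Several properties of the libraries are described before the genes. Transporter genes of excitatory and inhibitory dorsal horn neurons were high in all libraries, Slc17a6 at 96.7 to 136 FPKM and Slc32a1 at 73.2 to 95.2 FPKM, with the motor neuron gene Chat at 1.44 to 7.79 FPKM. The estimated depth was 31600000 to 42600000 fragments per library. The microRNA gene itself, Mir96, was listed at 0 FPKM in all 8 libraries, which checks no label, since mature microRNAs are too short for these libraries. WT1 stood apart from the others: its values depended on transcript length with a slope of -0.079 log2 units per doubling of length, compared with -0.0092 to 0.037 in the other 7 libraries, and it had the highest summed level of red blood cell genes, 199 FPKM compared with 5.96 to 39.3. Genes of plasma proteins made in liver had a summed level of 1.29 to 10.6 FPKM in wild type and 26.7 to 52.7 in knock-out. All 6 of that list had an unadjusted p under 0.05, compared with 5.52% of all tested genes, with a lowest adjusted p of 0.159 (limma). The list was chosen with earlier results of these data known, so its count is a description only. These lists were not part of the members, and their part in the results was not tested.

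No interferon-induced or antigen presentation gene of the set was called different between the genotypes. Of the 32 tested genes 0 passed an adjusted p under 0.05 (limma, Benjamini-Hochberg over all tested genes), compared with 0% of the 15061 genes tested, and the lowest adjusted p of any of them was 0.62. None of the 32 had an unadjusted p under 0.05, compared with 831 genes, or 5.52%, of all tested genes. In none of the 34 did the knock-out libraries all lie above or all below the wild-type libraries, a pattern seen in 3.03% of all tested genes. With any single library left out the count of the 32 past the adjusted threshold was again 0.

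By sign 22 of the 32 genes were lower in knock-out and 10 higher, compared with 46.9% of all tested genes lower. Their median log2 fold change, knock-out minus wild type on the log2(FPKM + 1) scale, was -0.064, compared with 0.014 over all tested genes. Without WT1 the signs were 15 lower and 17 higher, and the median was 0.0086. With the trend of values on transcript length removed from each library, 19 were lower and the median was -0.029. Other settings moved it the opposite way: without WT2, 25 were lower with a median of -0.11, and quantile normalization gave 25 lower and -0.086. With library weights 15 were lower and the median was 0.011. For 26 of the 32 genes the fold change was smaller than its own standard error.

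The precision of the 8 libraries limits what these fold changes can show. The 95% intervals of the log2 fold changes had a median width to either side of 0.34. Their outermost bounds over the 32 genes were -0.83, for Cd74, and 0.59, for Gbp3. The interval lay wholly within 0.5 log2 units of no change for 17 of the 32 genes, and within 1 log2 unit for all 32. Differences inside these intervals are not excluded by the data.

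**Figure D1:**
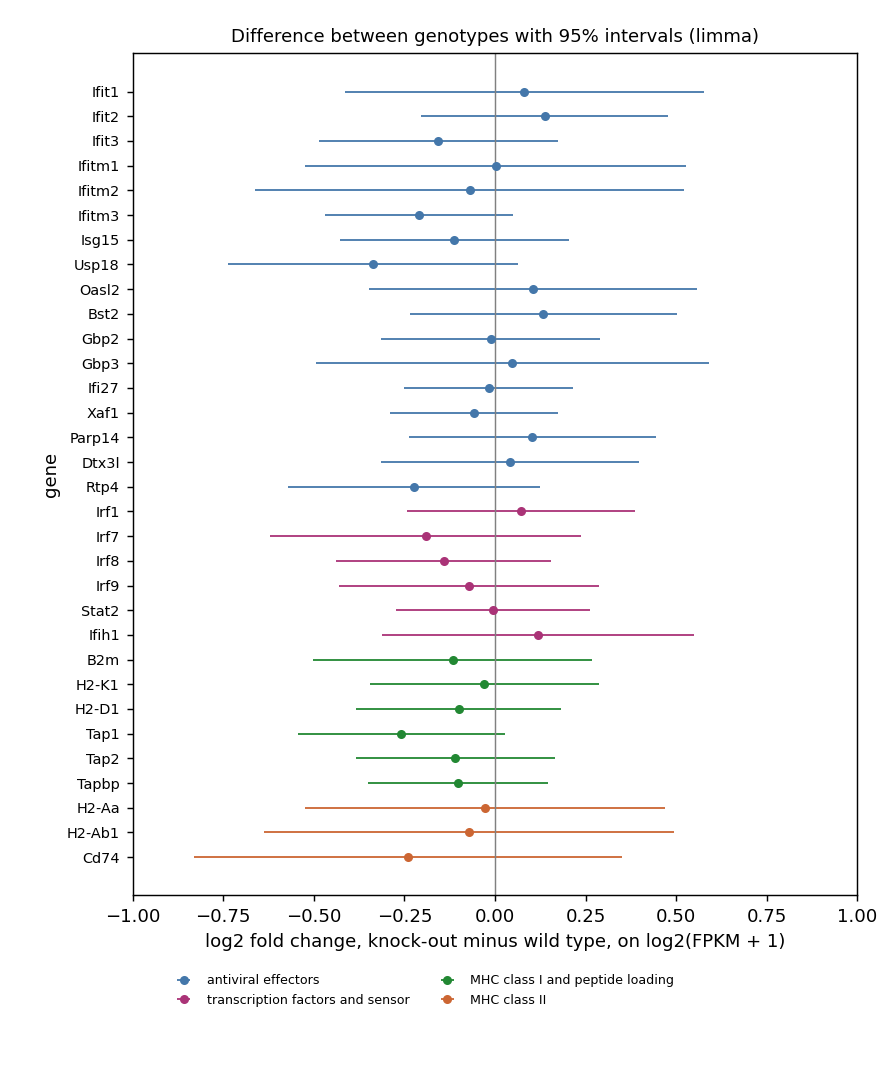
Log2 fold change (knock-out minus wild type, x axis, log2(FPKM + 1) scale) of the 32 tested genes, ordered by role, with 95% intervals from limma as bars. Every interval includes 0, and all lie between -0.83 and 0.59.

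Levels spanned a wide range. Among the tested genes the mean over the 8 libraries ran from 1.45 FPKM for Parp14, a mono-ADP-ribosyltransferase, to 124 FPKM for B2m, the light chain of MHC class I. Only 6 genes exceeded 30 FPKM: B2m, the class I heavy chains H2-D1 and H2-K1, the peptide loading factor Tapbp, and the membrane proteins Ifi27 and Ifitm3. A further 7 lay under 2 FPKM, including the untested Oas1a and Rsad2. From the lowest to the highest of the 8 libraries the tested genes varied 1.34-fold to 3.11-fold, with a median of 1.73-fold. The standard deviation between libraries of one genotype had a median of 0.22 log2 units over the 32 genes, compared with 0.18 over all tested genes in the same range of mean FPKM.

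The libraries in which the genes were highest were few. Of the 32 tested genes 15 were highest in WT1 and 14 in WT4, compared with 30% and 12.2% of all tested genes, and the remaining 3 were highest in KO3 (Isg15 and Irf1) or KO4 (Ifit2). The split followed the roles. All 6 class I genes and all 3 class II genes were highest in WT1, whereas 11 of the 17 tested antiviral effectors were highest in WT4.

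**Figure D2:**
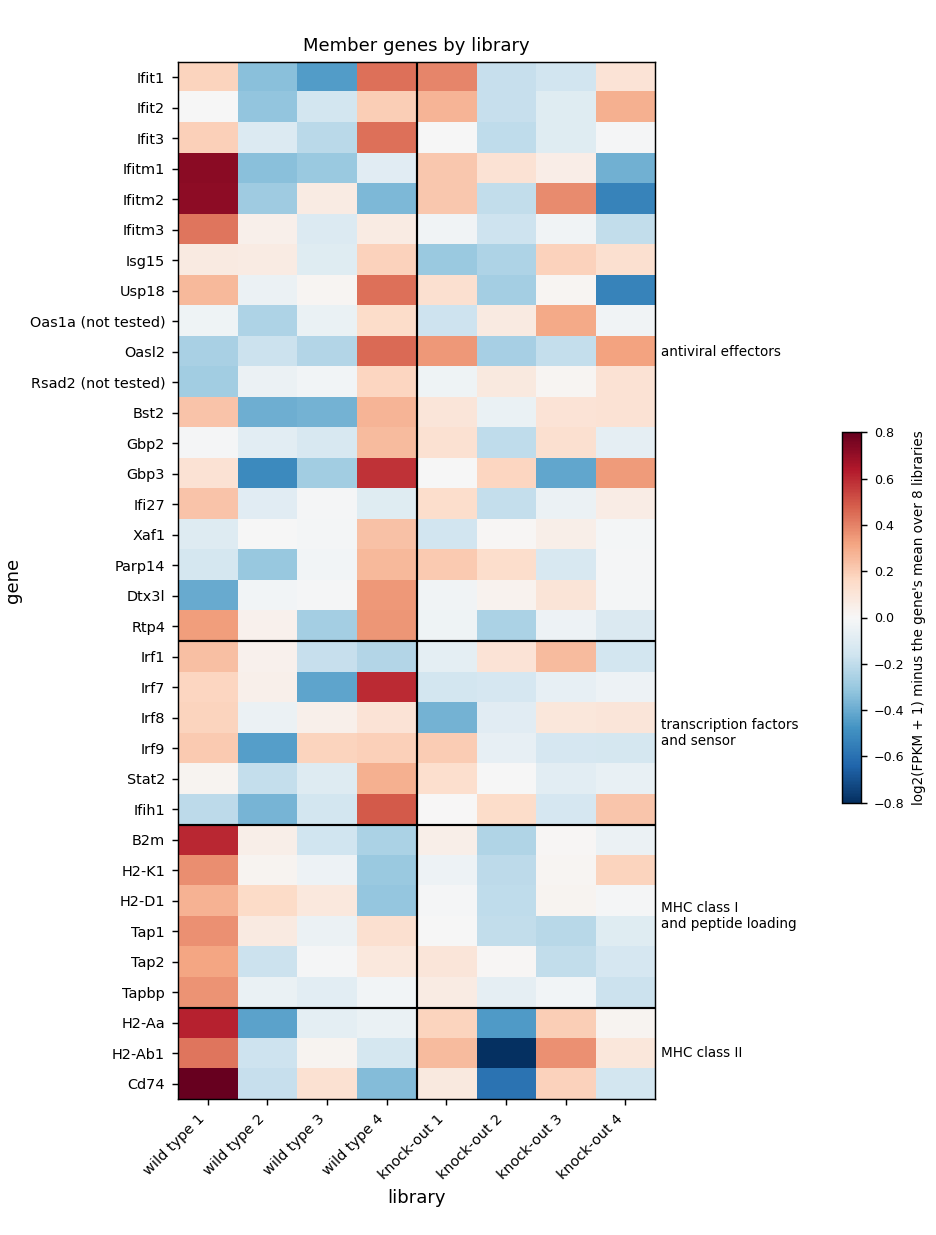
Level of each of the 34 genes (rows, grouped by role) in each of the 8 libraries (columns), as the log2(FPKM + 1) difference from the gene's mean over all libraries, with the colour scale ending at 0.8 in both directions. WT4 is high for most antiviral effectors, WT1 for both MHC groups, and KO2 is low for the 3 class II genes.

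Among the antiviral effectors, 8 of the 17 tested were higher and 9 lower in knock-out by sign, with a median log2 fold change of -0.012 (0.037 without WT1). Ifi27, a small interferon-induced membrane protein, was the most abundant. Its levels were 62.4, 49.9, 52.7 and 49.7 FPKM in WT1 to WT4 and 58.7, 46.5, 51.4 and 55.5 FPKM in KO1 to KO4. The genotypes overlapped apart from WT1, above every knock-out, and KO2, below every wild type, and the log2 difference was -0.017 ± 0.10 (SE, adjusted p = 0.95, limma). Ifitm3, whose product restricts the entry of viruses at endosomal membranes, had 44.5, 33.9, 30.4 and 34.4 FPKM in wild type and 32.2, 29.2, 32.3 and 28.5 FPKM in knock-out. WT1 was the highest library, WT3 lay among the knock-outs, and the log2 fold change was -0.21 ± 0.12 (adjusted p = 0.62, limma). Its neighbours Ifitm1 and Ifitm2 were lower in level, 4.36 to 10.5 and 3.67 to 10.1 FPKM over the 8 libraries, and both were also highest in WT1 and lowest in KO4. Ifitm2 shares 48.5% of the 50-base words of its longest transcript with other genes. The gene Gm45717 overlaps 40.9% of its exon bases on the same strand, so the level of Ifitm2 is uncertain.

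The other antiviral effectors followed a different library. Within the wild type, WT4 was the highest library for 13 of the 17 tested effectors, that is for all but Ifitm1, Ifitm2, Ifitm3 and Ifi27, compared with 30.1% of all tested genes. WT2 and WT3 were the highest for none. As the mean over the 17 genes of the log2 difference from each gene's overall mean, WT4 stood at 0.23, WT1 at 0.15, WT2 at -0.17 and WT3 at -0.15. The knock-out libraries ranged from -0.12 in KO2 to 0.093 in KO1. Microglial marker genes had their lowest summed level of the 8 libraries in WT4, 229.6 FPKM compared with 253 to 392 elsewhere. Single markers differed. C1qa, at 43.7 FPKM, was lowest in WT4, whereas Sall1 was at 8.89 FPKM there and at 6.41 to 8.64 in the other wild types. The part of microglia in the effector levels was not tested.

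Oasl2, a member of the oligoadenylate synthetase family, had WT4 well above the other wild types, WT1 among them. It measured 8.16 FPKM in WT4 and 4.60, 4.94 and 4.70 in WT1, WT2 and WT3. In knock-out it measured 7.52, 4.56, 4.87 and 7.35 FPKM, so that KO1 and KO4 were high as well. Ifit2, whose product binds RNA and holds back translation, had the same high libraries, with 7.11 FPKM in WT4, 7.54 in KO1 and 7.63 in KO4 and 4.68 to 6.06 FPKM in the other 5. Both genotypes thus held high and low libraries. The log2 fold changes were 0.10 ± 0.20 for Oasl2 and 0.14 ± 0.15 for Ifit2 (SE, limma, adjusted p = 0.84 and 0.71).

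Bst2, or tetherin, which holds budding virus particles at the cell surface, varied within the wild type and hardly within the knock-out. Its wild-type levels were 13.6, 8.48, 8.59 and 14.0 FPKM and its knock-out levels 12.3, 11, 12.4 and 12.5 FPKM. The knock-out range lay wholly inside the wild-type range. The log2 fold change was 0.13 ± 0.16 (SE, adjusted p = 0.74, limma). When the libraries were weighted by their estimated quality, which gave WT1 a weight of 0.15 and WT3 one of 5.09, Bst2 had a log2 fold change of 0.36 with an adjusted p of 0.047, while 1627 of all tested genes passed under that same weighting.

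Isg15, Usp18 and the Ifit genes are the textbook responders to type I interferon, and they are named here after their values were seen, as are the other genes outside the naming rule. Isg15, a ubiquitin-like protein attached to other proteins, had 3.94, 3.91, 3.39 and 4.34 FPKM in wild type and 2.83, 2.96, 4.34 and 4.14 FPKM in knock-out. Usp18 removes Isg15 and damps the type I receptor. It measured 2.22, 1.61, 1.72 and 2.66 FPKM in wild type and 1.94, 1.23, 1.72 and 0.857 FPKM in knock-out. This was the widest spread of any tested member, 3.11-fold between WT4 and KO4, and the most negative fold change, -0.34 ± 0.18 log2 units (SE, unadjusted p = 0.090, adjusted p = 0.62, limma). Its lowest values were in KO4 and KO2, while KO1 and KO3 lay within the wild-type range.

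Ifit1 carries a pair of miR-96 seed matches in its 3′ UTR and 2 ISRE cores in its promoter, both shown above. It measured 1.87, 1.01, 0.861 and 2.44 FPKM in wild type and 2.33, 1.23, 1.28 and 1.74 FPKM in knock-out. The genotypes overlapped, and the log2 difference was 0.081 ± 0.22 (SE, adjusted p = 0.89, limma). Ifit3, without a seed match, measured 7.69, 6.06, 5.54 and 9.33 FPKM in wild type and 6.57, 5.6, 6.12 and 6.56 FPKM in knock-out. Its fold change was -0.16 ± 0.15 log2 units, while Ifit2, also without a seed match, had 0.14 ± 0.15. Whether seed matches bear on the fold changes of the members was not tested. Ifit3 shares 51.2% of the 50-base words of its longest transcript with Ifit3b, so fragments from the pair could have been assigned to either.

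The guanylate-binding proteins Gbp2 and Gbp3, GTPases that act on the membranes around pathogens, were again highest in WT4. Gbp3 measured 4.40, 2.51, 3.12 and 6.44 FPKM in wild type and 3.99, 4.63, 2.74 and 5.31 FPKM in knock-out, and Gbp2 between 1.77 and 2.80 FPKM over all libraries. Their log2 fold changes were 0.048 ± 0.24 and -0.012 ± 0.14. Parp14, Dtx3l and Xaf1 had fold changes between -0.057 and 0.10. Rtp4, a chaperone of G protein-coupled receptors, measured 3.47, 2.63, 1.94 and 3.53 FPKM in wild type and 2.46, 1.98, 2.45 and 2.27 FPKM in knock-out, a difference of -0.22 ± 0.16 log2 units. Of the untested genes, Oas1a ranged from 0.357 to 0.987 FPKM and Rsad2 from 0.219 to 0.668 FPKM. Oas1a shares 57.6% of its 50-base words with Oas1b and Oas1g.

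**Figure D3:**
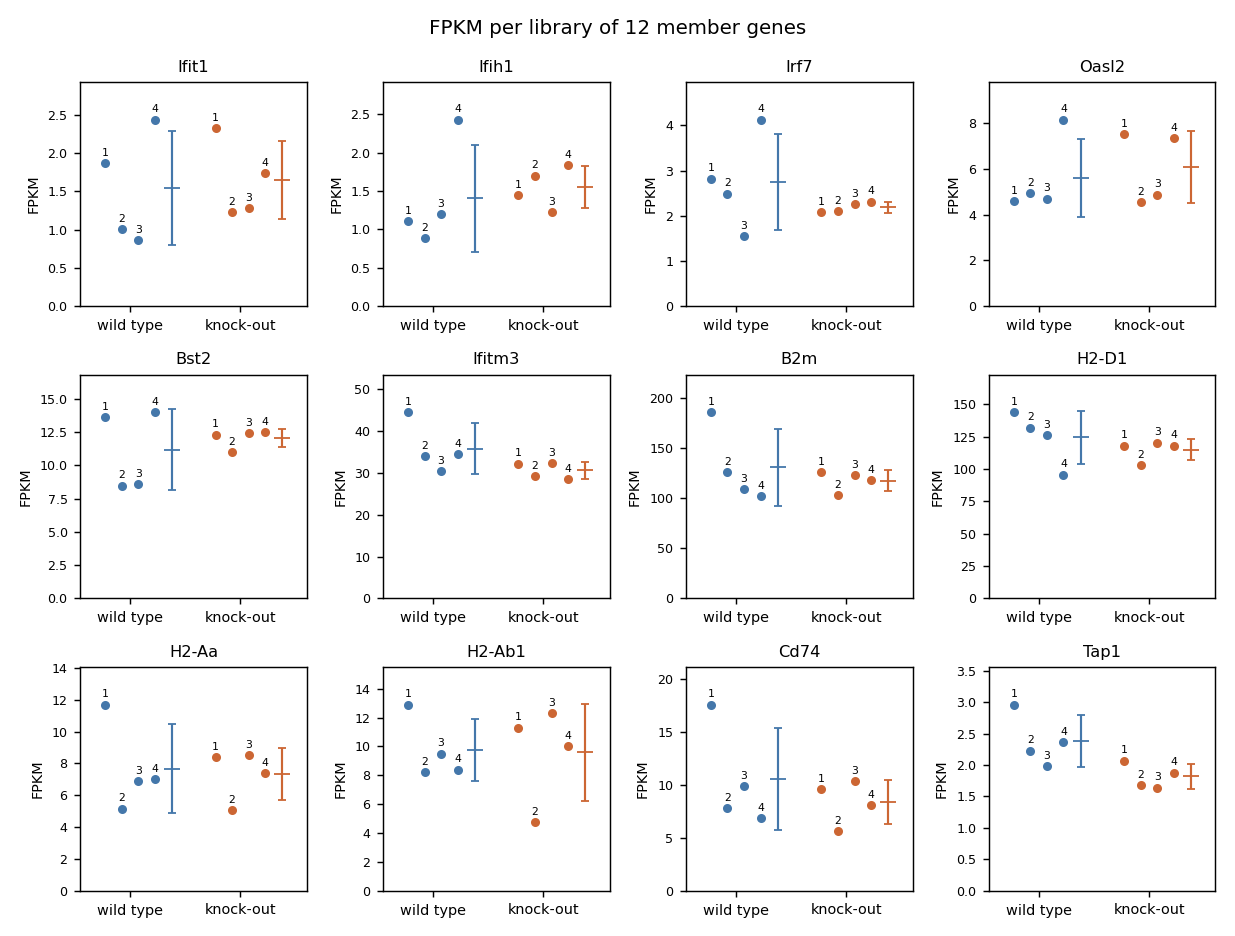
FPKM of 12 of the genes in each library (points, numbered by replicate) with the mean and SD of each genotype (n = 4). The wild-type and knock-out points overlap in every panel.

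Of the transcription factors and the sensor, 2 were higher and 4 lower in knock-out by sign, with a median of -0.039 (-0.0069 without WT1). Irf9, the DNA-binding partner of Stat2, was the most abundant. It measured 9.90, 5.93, 9.67 and 9.76 FPKM in wild type and 9.83, 8, 7.57 and 7.53 FPKM in knock-out. WT2 was the lowest of all libraries and the other 3 wild types were close together near the level of KO1, and the log2 difference was -0.071 ± 0.16 (SE, adjusted p = 0.86, limma). Stat2 measured 7.35, 6.23, 6.69 and 9.03 FPKM in wild type and 8.04, 7.22, 6.77 and 6.92 FPKM in knock-out. Its log2 fold change was -0.0066 ± 0.12, and WT4 was again the highest library.

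Irf7, the factor that drives the production of type I interferon, spread more between wild types than between genotypes. The wild-type libraries read 2.82, 2.49, 1.54 and 4.13 FPKM and the knock-out libraries 2.07, 2.10, 2.25 and 2.31 FPKM. All knock-outs lay between WT3 and WT2, and the log2 fold change was -0.19 ± 0.19 (SE, adjusted p = 0.69, limma). Ifih1, a cytosolic sensor of double-stranded RNA with a miR-96 seed match, measured 1.11, 0.881, 1.2 and 2.43 FPKM in wild type and 1.44, 1.70, 1.22 and 1.84 FPKM in knock-out. WT4 exceeded every knock-out and the other 3 wild types lay below all of them, with a log2 fold change of 0.12 ± 0.19. Irf1, a factor of the gamma interferon response, and Irf8, a factor of the myeloid lineage that microglia need, had log2 fold changes of 0.072 ± 0.14 and -0.14 ± 0.13 at levels of 4.09 to 6.14 and 2.51 to 4.17 FPKM.

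For MHC class I and its peptide loading, all 6 genes were lower in knock-out by sign, with a median log2 fold change of -0.11 and a lowest adjusted p of 0.62 (limma). Without WT1, 3 of the 6 were lower and 3 higher, and the median was -0.011. B2m measured 186, 126, 109 and 102 FPKM in wild type and 126, 103, 123 and 118 FPKM in knock-out. The high wild-type mean of 131 ± 38.1 FPKM (SD, n = 4), compared with 118 ± 10.3 FPKM, came with WT1, since the other wild types lay at or around the knock-out range. The log2 fold change was -0.12 ± 0.17 (SE, adjusted p = 0.78, limma), smaller than its standard error, and without WT1 it was 0.065. Whether the miR-96 seed match of B2m bears on its level was not tested.

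H2-D1 and H2-K1 encode the classical class I heavy chains of this strain. H2-D1 measured 144, 132, 126 and 95.7 FPKM in wild type and 118, 103, 120.4 and 118 FPKM in knock-out. WT4 was the lowest library and the other 3 wild types were the highest. The log2 fold change was -0.10 ± 0.13 (SE, adjusted p = 0.74, limma). H2-K1 ranged from 38.4 FPKM in WT4 to 61.8 FPKM in WT1 and differed by -0.030 ± 0.14 log2 units. H2-D1 shares 14.3% and H2-K1 8.11% of their 50-base words with other class I genes, so their levels are uncertain to that extent.

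Of the genes that bring peptides to class I molecules, Tap1 had the lowest unadjusted p of all members, while Tap2 and Tapbp had 0.39 and 0.38 (limma). Tap1, a subunit of the peptide transporter, measured 2.96, 2.23, 1.98 and 2.36 FPKM in wild type and 2.07, 1.68, 1.64 and 1.88 FPKM in knock-out. KO1 lay above WT3, and the log2 fold change was -0.26 ± 0.13 (SE, unadjusted p = 0.071, adjusted p = 0.62, limma). Tap2, the other subunit, ranged from 7.57 to 11.2 FPKM with a log2 fold change of -0.11 ± 0.12. Tapbp, or tapasin, which holds the transporter to class I molecules, measured 46.3, 34.6, 33.8 and 35.4 FPKM in wild type and 37.7, 34.1, 35.3 and 31.7 FPKM in knock-out, so WT1 alone lay above the others (log2 fold change -0.10 ± 0.11). Opposite-strand genes overlap 24.9% of the exon bases of Tapbp and 14.1% of those of Tap2, and whether strand was used in the authors' quantification is not given in the sources used here.

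For the 3 MHC class II genes the within-genotype standard deviation had a median of 0.44 log2 units, compared with 0.22 for all 32 tested genes and 0.18 to 0.23 for the other 3 roles. All 3 were highest in WT1 and lowest in KO2. Cd74, the invariant chain that guides class II molecules through the cell, measured 17.6, 7.85, 9.91 and 6.90 FPKM in wild type and 9.61, 5.67, 10.4 and 8.07 FPKM in knock-out. H2-Ab1, the beta chain, measured 12.9, 8.22, 9.5 and 8.39 FPKM in wild type and 11.3, 4.74, 12.3 and 10 FPKM in knock-out. H2-Aa, the alpha chain, measured 11.7, 5.17, 6.87 and 7 FPKM and 8.40, 5.05, 8.51 and 7.42 FPKM.

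By genotype the class II genes gave log2 fold changes of -0.24 ± 0.26 for Cd74, -0.072 ± 0.25 for H2-Ab1 and -0.028 ± 0.22 for H2-Aa (SE, limma, adjusted p from 0.71 to 0.97). The sign turned with single libraries: the median of -0.072 became 0.058 without WT1, with all 3 genes higher, and 0.12 without KO2. In a bulk sample, fewer cells of a type and less RNA per cell cannot be told apart. The summed level of 19 microglial markers was 392 FPKM in WT1 and 229.6 to 316 in the other wild types, and 253 FPKM in KO2 and 274 to 299 in the other knock-outs. The summed level of neutrophil, lymphocyte and dendritic cell markers was 40.8 FPKM in KO2 and 39.6 in WT2, the libraries with the lowest summed class II level of their genotypes (15.5 and 21.2 FPKM), and 14.8 to 26.3 in the other 6. Of 9 border macrophage markers 3 were tested, all 3 higher in knock-out by sign with a median log2 fold change of 0.25, and the summed level of the 9 was 5.97 to 10.3 FPKM in wild type and 7.85 to 13.5 in knock-out, with 10.3 in WT1 and 9 in KO2. The part of these cell types in the class II levels was not tested.

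The wider pathway gave few differences either, and none passed the adjusted threshold. Of 12 interferon genes (the ligands), 9 were listed at 0 in all 8 libraries, none reached 1 FPKM, and their summed level was at most 0.097 FPKM in a library. Of 13 tested receptor and JAK-STAT genes, 5 were higher and 8 lower by sign, 0 had an unadjusted p under 0.05, and the median log2 fold change was -0.038. The type I receptor chain Ifnar1 was at 13.4 to 17.1 FPKM in all libraries.

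Of 13 tested nucleic acid sensors and adaptors, 8 were higher and 5 lower, with a median of 0.026. Of the 13, 1 had an unadjusted p under 0.05, compared with 5.52% of all tested genes, and the same gene was the 1 without overlap between genotypes, compared with 3.03%. This was Ikbke, a kinase that activates Irf7 and its relatives, at 1.51, 1.42, 1.74 and 1.68 FPKM in wild type and 2.72, 2.16, 1.88 and 2.08 FPKM in knock-out. Its log2 fold change was 0.31 ± 0.12 (SE, unadjusted p = 0.034, adjusted p = 0.62, limma). Its relative Tbk1 differed by 0.20 ± 0.11 with overlap.

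A further list held 50 other interferon-induced genes, of which 32 were tested. By sign 24 were higher and 8 lower, compared with 46.9% of all tested genes lower. The median log2 fold change was 0.078 (0.086 without WT1). Over the settings it ran from 0.012 under quantile normalization to 0.16 with a mean FPKM of at least 5. Without WT1, 22 of the 32 were higher and 10 lower, compared with 17 and 15 of the members, and the difference between the lists was not tested. Of the 32, 1 had an unadjusted p under 0.05, compared with 5.52% of all tested genes. That gene was Trim56, a ubiquitin ligase of the antiviral response, at 2.37, 2.65, 2.96 and 3.56 FPKM in wild type and 4.43, 4.10, 3.21 and 3.93 FPKM in knock-out (log2 fold change 0.34 ± 0.13, adjusted p = 0.62, limma). Eif2ak2, the RNA-activated kinase PKR, measured 4.25 to 6.79 FPKM in wild type and 5.10 to 8.74 FPKM in knock-out, a difference of 0.31 ± 0.17 log2 units.

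The other antigen presentation genes, 27 of 34 tested, were lower by sign in 17 cases and higher in 10, with a median of -0.097 (-0.034 without WT1). Of the 27, 2 had an unadjusted p under 0.05 (H2-T22 and Psmb8, limma), compared with 5.52% of all tested genes. In 4 of the 27 the genotypes did not overlap, compared with 3.03% of all tested genes: H2-T22, Psmb8 and Rfxank were lower in every knock-out library and Mr1 higher. H2-T22, a non-classical class I gene, measured 14.6, 14.7, 14.4 and 15.2 FPKM in wild type and 11.9, 12.2, 13.8 and 11.9 FPKM in knock-out. Its log2 fold change was -0.23 ± 0.083 (SE, unadjusted p = 0.020, adjusted p = 0.62, limma). Psmb8, a subunit of the immunoproteasome, measured 4.55, 2.66, 2.25 and 2.19 FPKM in wild type and 1.95, 1.69, 1.96 and 1.86 FPKM in knock-out, a difference of -0.41 ± 0.18 log2 units with its highest value in WT1. Rfxank, a factor bound to class II promoters, ranged from 5.58 to 6.43 FPKM in wild type and from 5.31 to 5.47 FPKM in knock-out. The log2 fold changes were -0.097 ± 0.091 for Rfxank and 0.17 ± 0.098 for Mr1 (SE, limma, unadjusted p = 0.31 and 0.12).

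H2-DMa and H2-DMb1, which together exchange peptides on class II molecules, had the most negative fold changes of that list, both -0.44 ± 0.20 log2 units (SE, limma, adjusted p = 0.62). H2-DMa measured 10.9, 8.89, 7.41 and 5.78 FPKM in wild type and 5.75, 4.20, 8.02 and 5.32 FPKM in knock-out. KO3 lay above WT3 and WT4, so the genotypes overlapped. The class II beta chain gene H2-Eb1 shared the extremes of the 3 class II members, with 10.7 FPKM in WT1 and 4.40 FPKM in KO2. Ciita, the transactivator that switches class II genes on, ranged from 0.0584 to 0.503 FPKM, below the level tested.

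**Figure D4:**
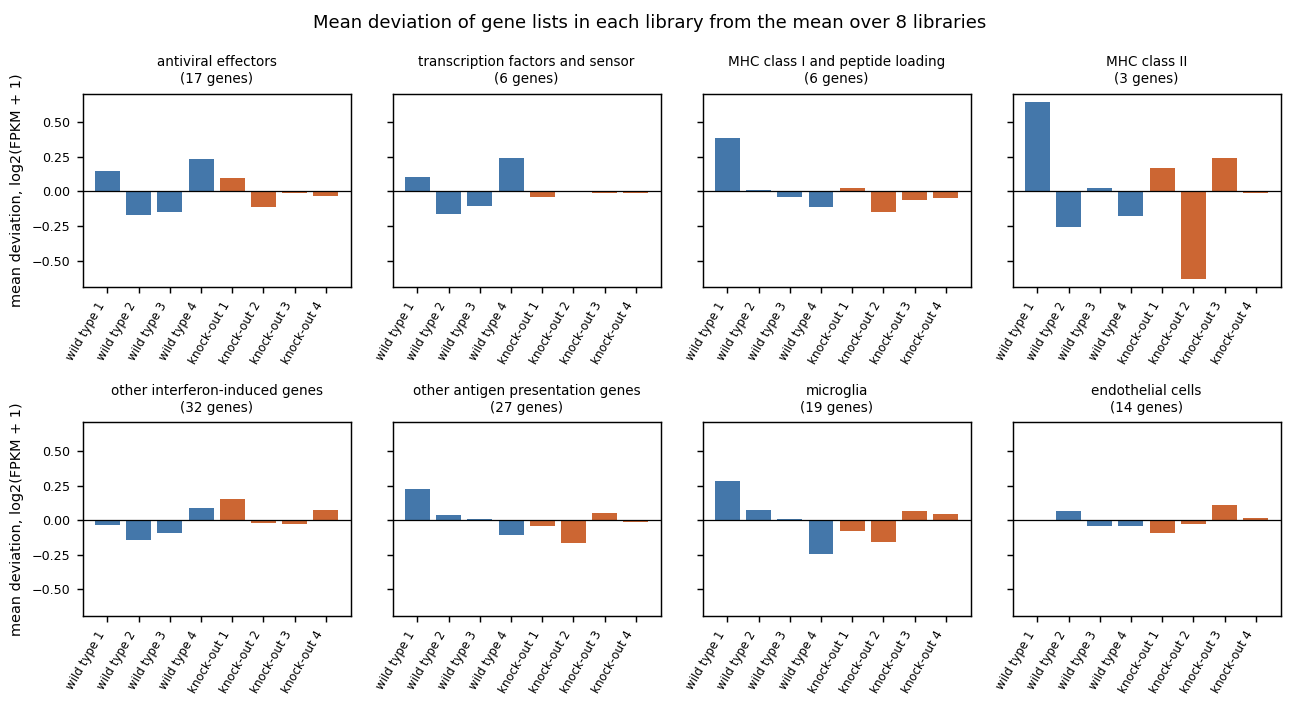
Mean deviation of each gene list from its overall level (log2 units, y axis) in each of the 8 libraries (bars) for the 4 roles, the other interferon-induced and antigen presentation genes, and microglial and endothelial markers. WT4 is at 0.23 for the antiviral effectors and -0.24 for microglial markers, and WT1 is the highest library for both MHC groups.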

How the data were processed

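The authors deposited 1 table per library with FPKM per gene, and the labels' protocols name TRIzol extraction, 1 ug of total RNA and the NEBNext Ultra RNA kit. HISAT2, SAMtools and Cufflinks are named in the submitters' processing notes, without versions. Those notes list the build mm8, but the deposited loci equalled the GRCm38 annotation (GENCODE M21) for 45128 of 49326 named genes (91.5%), so GRCm38 was used, with coordinates numbered from 1.

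Depth was estimated from the steps that 1 fragment makes in FPKM, for genes with transcripts of at least 3000 nt under the assumption of 200 nt fragments. Of the values used, 98.2% to 99.4% per library lay within 0.15 of a whole number. Since these are not counts, log2(FPKM + 1) was fitted with limma 3.58.1 in R 4.3.3 (two-sided, eBayes with its trend and robust settings) over genes with a mean of at least 1 FPKM (15061 genes), without covariates. Adjustment was by Benjamini-Hochberg over all of them, with a threshold of 0.05. On this scale the change of low genes is understated.

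The members, lists and tests were chosen with earlier results of these data known. Genes named by rule were the 2 most abundant of each role, members with 1 library apart from its genotype, and up to 4 genes of lowest p per wider list, from which the text gives a part. Alternatives were other pseudocounts, filters, scalings, library weights, a replicate block, removal of the length trend, and leaving out each library. One gene of the wider lists is not reported here by itself.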

Additional observations from a re-analysis of the deposited data

Results flagged for a closer look

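In 5 of the 64 groups formed by the 32 tested genes and the 2 genotypes, 1 library stood apart from the other 3 by Dixon's criterion. That is 7.81% of groups, compared with 7.57% over all tested genes, and chance alone gives about 1 in 20. Oasl2 was high in WT4 at 8.16 FPKM, compared with 4.60 to 4.94 in the other wild types. Bst2 was low in KO2 at 11 FPKM, compared with 12.3 to 12.5 in the other knock-outs. Irf9 was low in WT2 at 5.93 FPKM, compared with 9.67 to 9.90. H2-D1 was low in KO2 at 103 FPKM, compared with 118 to 120.4. Tapbp was high in WT1 at 46.3 FPKM, compared with 33.8 to 35.4.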

How the results depend on the processing

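Single members depended on the setting. Of their 532 recomputed values, 35 had the opposite sign when 1 library was left out and 18 under another setting. No sign could turn under the replicate block, the other filters or eBayes without trend, which leave each fold change as it was. Of the 32 genes 13 had 1 sign in every setting, and the lowest adjusted p outside the library weights was 0.222 (limma). The cause of the changes in sign was not tested. Under library weights, 1627 genes passed the adjusted threshold and 5014 an unadjusted p under 0.05, 1 member passed (Bst2), the median was 0.131 for the transcription factors and sensor and 0.000838 for receptors and JAK-STAT genes, and the sign turned for Ifit3 (0.0444), Gbp2 (0.0383), Rtp4 (0.0242), Irf7 (0.166), Stat2 (0.0952), B2m (0.0127) and Tapbp (0.0122). With no filter on low values 1396 genes had an unadjusted p under 0.05. Median-ratio rescaling gave Ifitm1 -0.0042. Quantile normalization gave Ifitm1 -0.0679, Gbp3 -0.0104, Ifi27 0.0106, Dtx3l -0.0526 and Irf1 -0.00378. Removal of the length trend gave Ifi27 0.023, Dtx3l -0.0569, Stat2 0.0306, H2-K1 0.0078 and H2-Aa 0.0107. With 1 library left out, 0 to 1 genes passed the adjusted threshold (1 without KO2), and 325 (without KO1) to 3151 (without WT4) had an unadjusted p under 0.05, with 352 without KO2, 425 without KO4 and 1438 without KO3. The same omissions gave medians of -0.0588 to 0.00491 for receptors and JAK-STAT genes and -0.0701 to 0.0623 for sensors and adaptors. They gave B2m -0.221 to 0.0646, Cd74 -0.396 to 0.0165, Dtx3l -0.0842 to 0.164, Gbp2 -0.0585 to 0.07, Gbp3 -0.114 to 0.247, H2-Aa -0.175 to 0.172, H2-Ab1 -0.204 to 0.198, H2-K1 -0.134 to 0.09, Ifi27 -0.0674 to 0.0557 and Ifit1 -0.0548 to 0.24. They gave Ifitm1 -0.111 to 0.242, Ifitm2 -0.208 to 0.158, Irf1 -0.000425 to 0.165, Stat2 -0.0707 to 0.087, Tapbp -0.147 to 0.000634 and Xaf1 -0.102 to 0.012.

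The labels do not say whether the replicate numbers pair the libraries. Deviations of same-numbered libraries correlated at -0.108 to 0.144 across genes, compared with -0.417 to 0.228 for other pairs of a wild type and a knock-out. With so few libraries these correlations cannot settle whether a pairing exists. With the replicate number as a block, 0 genes passed the adjusted threshold and 790 had an unadjusted p under 0.05 (limma). Each number occurs once per genotype, so the block alters only the standard errors. Every fold change, and with it the members' median of -0.0638, was fixed in advance. FPKM carry no counts, so the precision of genes near 1 FPKM rests on the spread of the 4 libraries per genotype alone.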
